A study of Arabidopsis thaliana with 24 samples.

Results

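Of 27655 Arabidopsis thaliana loci counted in whole seedlings, 6 were higher in every outdoor group than in every indoor group by at least 1 log2 unit. They were AT1G75945, SWEET10 (AT5G50790), SEP3 (AT1G24260), AT3G28500 and the plastid genes ATCG01040 (ccsA, also called ycf5) and ATCG00380 (rps4). Each was chosen from these same libraries. The value used was log2 of the group mean in CPM (counts scaled to 1000000 per library) plus 1, and the gap between the lowest of the 4 outdoor groups and the highest of the 4 indoor groups had to reach 1. The rule would have kept up to 300 loci by gap, so none was cut. The 6 are 0.0217% of all loci, and 4 loci met the same rule turned round. Because the rule used the difference between outdoors and indoors, that difference is described here and not tested.

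Polyadenylated RNA of soil-grown seedlings aged 14 days, labelled wild type only in the names of the deposited data, was read near the 3′ end of each transcript in 24 libraries, 3 per group. Natural LD seedlings grew outdoors in a cage shaded with garden fabric, in July 2014 or June 2013. LD+FR+TEMP seedlings grew indoors in long days with far-red diodes of 730 nm that set the red to far-red ratio to 1 and with a temperature programme of 15.8 to 22.8 °C, which stood at 17.9 °C at ZT04. Lab LD seedlings grew in the usual indoor long day. Each setting was sampled at zeitgeber time 16 (ZT16, evening) and at zeitgeber time 4 (ZT04, morning), which makes 8 groups. Nothing in the labels tells if the 3 replicates of a group were planted separately, so the p-values may reflect technical spread alone.

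Total counts ran from 6543615 to 10711582 in natural libraries and from 12069812 to 16089156 in indoor libraries, so depth and setting cannot be told apart. With every library thinned to 6543615 counts, the 6 genes still met the rule, beside AT4G19430. The 12 leaf markers summed to 64085 to 79014 CPM in natural libraries and 49632 to 66991 CPM indoors, and root markers to 293 to 433 CPM in natural libraries against 388 to 472 CPM indoors. Stomatal and guard cell markers summed to 674 to 852 CPM in natural libraries and 784 to 1257 CPM indoors, and trichome markers to 44.8 to 67.8 CPM in natural libraries and 30.6 to 68.1 CPM indoors. Their part in the values of the 6 genes was not tested. In such whole-seedling samples a change in the share of a cell type and a change in RNA per cell cannot be told apart. The natural 2014 ZT04 libraries also held the highest sums of 15 heat shock genes, 2569 to 17645 CPM, against 44.2 to 358 CPM in the other natural libraries and 46.5 to 103 CPM indoors.

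Plants flower in long days when leaves make the mobile protein FT, which travels to the shoot tip and, with partners there, switches on floral MADS-box genes. SEP3 is such a gene: it encodes a MADS-domain transcription factor that joins floral organ proteins into complexes, and it is also known to be switched on in leaves when FT is abundant. SWEET10 encodes a sugar efflux transporter of the plasma membrane and is known as a gene activated through FT during the floral transition. AT3G28500 encodes a member of the 60S acidic ribosomal protein family, whose proteins form the stalk of the large cytosolic ribosomal subunit. The plastid gene ccsA encodes a factor that attaches haem to c-type cytochromes in chloroplasts, and plastid rps4 encodes a protein of the small chloroplast ribosomal subunit. It is not the nuclear disease resistance gene that shares the name RPS4. AT1G75945 is annotated only as an uncharacterized protein.

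The 4 nuclear genes have annotated starts, and the 250 bases before each start are shown on the strand of the gene because all 4 were high in the same libraries and the letters allow a comparison of what precedes them. Sequences and positions are those of RefSeq on assembly TAIR10.1. AT1G75945 lies on the minus strand at chr1:28515245-28515916, and its window is chr1:28515917-28516166. SWEET10 lies on the minus strand at chr5:20656193-20658001, with the window chr5:20658002-20658251. SEP3 lies on the minus strand at chr1:8593536-8596123, with the window chr1:8596124-8596373. AT3G28500 lies on the plus strand at chr3:10682029-10682979, with the window chr3:10681779-10682028. Capitals mark every match to a searched motif.
AT1G75945: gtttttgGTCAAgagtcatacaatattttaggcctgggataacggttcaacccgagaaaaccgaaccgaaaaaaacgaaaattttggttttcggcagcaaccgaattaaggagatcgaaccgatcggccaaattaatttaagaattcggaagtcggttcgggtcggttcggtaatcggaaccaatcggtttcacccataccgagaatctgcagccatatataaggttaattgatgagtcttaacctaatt
SWEET10: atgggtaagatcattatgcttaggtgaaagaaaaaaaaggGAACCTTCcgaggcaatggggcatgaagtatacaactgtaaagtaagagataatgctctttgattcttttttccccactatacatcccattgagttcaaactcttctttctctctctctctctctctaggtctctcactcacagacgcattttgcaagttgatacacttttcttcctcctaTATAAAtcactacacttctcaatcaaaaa
SEP3: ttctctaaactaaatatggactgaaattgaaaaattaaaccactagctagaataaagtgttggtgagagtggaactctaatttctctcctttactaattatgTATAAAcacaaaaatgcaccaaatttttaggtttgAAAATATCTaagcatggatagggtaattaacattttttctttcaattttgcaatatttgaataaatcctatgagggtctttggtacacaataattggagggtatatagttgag
AT3G28500: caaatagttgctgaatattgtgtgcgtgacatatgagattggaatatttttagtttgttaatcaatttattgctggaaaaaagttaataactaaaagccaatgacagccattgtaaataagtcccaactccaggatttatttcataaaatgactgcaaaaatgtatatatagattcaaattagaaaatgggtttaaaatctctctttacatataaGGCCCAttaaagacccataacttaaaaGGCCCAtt

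A set of 10 motifs was searched on both strands. The AT1G75945 window held 1 match to the W-box core TTGAC, 243 bases before the start, which 44.93% of 27443 windows of this length hold. The SWEET10 window held 1 heat shock element GAANNTTC at 210 bases (9.55% of windows) and 1 TATA box TATAAA at 29 bases (47.35% of windows). The SEP3 window held 1 evening element AAAATATCT, the letters linked to evening expression, at 113 bases (2.36% of windows), and 1 TATA box at 148 bases. The AT3G28500 window held 2 site II elements TGGGCC, at 35 and 8 bases (13.65% of windows), letters often found before ribosomal protein genes. No motif was shared by all 4 windows, the matches did not overlap each other, and the TATA box was the match found in more than 1 window. No match to the G-box CACGTG (6.49%), the C-box GACGTC (2.27%), the telo-box AAACCCTA (4.49%), the I-box GATAAG (12.29%) or the CArG box (2.52%) was in these 4 windows, which says only that these letters are not there.

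AT1G75945 had the largest gap of the 6, 2.51 log2 units. It gave 11.8, 10.1 and 6.92 CPM in natural 2014 at ZT16 and 6.69, 13.1 and 9.49 CPM in natural 2014 at ZT04. Natural 2013 gave 8.25, 1.15 and 11.9 CPM at ZT16 and 2.38, 7.02 and 6.96 CPM at ZT04. The 12 indoor libraries ran from 0 to 0.271 CPM with a median of 0.0701 CPM. The gene was thus close to the limit of detection indoors, where 16 reads were counted over 12 libraries and 3 libraries had none, against 822 reads outdoors. The pooled CPM was 87.2-fold higher outdoors than indoors, with a 95% interval of 53.4 to 153 that covers counting error only. The lowest outdoor library was natural 2013 ZT16 replicate 2 with 9 reads, and it was still 4.25-fold above the highest indoor library. Ordered by mean, natural 2014 ZT04 (9.75 ± 3.19 CPM, SD, n = 3), natural 2014 ZT16, natural 2013 ZT16 and natural 2013 ZT04 (5.45 ± 2.66 CPM) overlapped each with its neighbour.

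The annotation gives AT1G75945 2 exons and a protein of 61 amino acids. Its start faces that of SKP1, an adaptor subunit of SCF ubiquitin ligases, across 602 bases. SKP1 averaged 387 ± 32.0 CPM in natural libraries and 256 ± 25.8 CPM in indoor libraries (SD, n = 12 each), a gap of 0.36 log2 units, with the lowest natural library at 326 CPM and the highest indoor library at 299.9 CPM. ATA27, 960 bases from the other end of AT1G75945, had 0 reads in all 24 libraries. No other stretch of 28 or more bases in the genome matched the AT1G75945 gene at 90% identity.

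SWEET10 came next with a gap of 1.44 log2 units. It gave 2.71, 2.27 and 3.92 CPM in natural 2014 at ZT16 and 2.37, 1.94 and 3.87 CPM in natural 2014 at ZT04. Natural 2013 gave 2.14, 1.28 and 3.74 CPM at ZT16 and 4.43, 3.65 and 2.66 CPM at ZT04. Indoors it ran from 0 to 0.532 CPM with a median of 0.167 CPM. Every outdoor library was therefore above every indoor one, with 299 reads outdoors against 31 indoors and a pooled ratio of 16.4 (95% counting interval 11.3 to 24.5). The 4 outdoor group means ran from 2.39 ± 1.25 CPM (natural 2013 ZT16) to 3.58 ± 0.886 CPM (natural 2013 ZT04), and each overlapped its neighbour in the order. Indoors, group means of 0.111 to 0.246 CPM overlapped likewise.

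SEP3 had a gap of 1.26 log2 units and its highest values in the evening of 2014. It gave 8.31, 5.10 and 8.68 CPM in natural 2014 at ZT16 and 2.65, 2.54 and 2.75 CPM in natural 2014 at ZT04. Natural 2013 gave 3.06, 4.86 and 4.68 CPM at ZT16 and 1.73, 3.22 and 3.48 CPM at ZT04. Indoors the range was 0.210 to 0.829 CPM with a median of 0.449 CPM. Natural 2014 ZT16 was above every other group without overlap, and the other 3 outdoor groups overlapped each with the next. Pooled CPM was 9.51-fold higher outdoors than indoors (95% counting interval 7.50 to 12.2). SEP3 was counted on 3 transcript models, which held 176, 154 and 124 reads outdoors and 31, 27 and 23 reads indoors. How reads shared by these models were assigned is not given in the sources used here. The split therefore cannot show whether 1 model carried the difference.

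AT3G28500 had the smallest gap of the 6, 1.12 log2 units, and the widest spread among outdoor groups. It gave 8.96, 6.14 and 17 CPM in natural 2014 at ZT16 and 5.99, 7.86 and 10.2 CPM in natural 2014 at ZT04. Natural 2013 gave 22.8, 31.6 and 24.6 CPM at ZT16 and 7.88, 13 and 25.7 CPM at ZT04. The indoor range was 1.57 to 4.06 CPM with a median of 2.46 CPM. Natural 2013 ZT16 was highest and overlapped natural 2013 ZT04, whose replicate 3 was as high as the evening libraries. The pooled ratio of outdoors to indoors was 5.65 (95% counting interval 5.09 to 6.29). Set against the mean CPM of all indoor libraries, the mean of the natural 2014 libraries was 3.65-fold and that of natural 2013 was 8.10-fold.

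The plastid gene ATCG01040 (ccsA) had a gap of 1.28 log2 units. It gave 7.75, 6.90 and 10.8 CPM in natural 2014 at ZT16 and 9.76, 10.2 and 9.62 CPM in natural 2014 at ZT04. Natural 2013 gave 13.3, 9.59 and 6.69 CPM at ZT16 and 15.2, 9.5 and 9.31 CPM at ZT04. Indoors it ran from 2.03 to 4.35 CPM with a median of 2.36 CPM. The outdoor groups overlapped each other and none reached down to the indoor libraries. The pooled ratio was 3.67 (95% counting interval 3.28 to 4.11). A stretch of 159 bases of ATCG01040 occurs on chromosome 4 at 98.7% identity, and how reads from such copies were counted is not given in the sources used here.

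ATCG00380 (plastid rps4) had a gap of 1.17 log2 units and levels near those of ATCG01040. It gave 7.47, 6.90 and 9.40 CPM in natural 2014 at ZT16 and 6.41, 9.43 and 6.62 CPM in natural 2014 at ZT04. Natural 2013 gave 11, 7.16 and 7.89 CPM at ZT16 and 11.4, 8.33 and 7.98 CPM at ZT04. The indoor range was 0.912 to 3.70 CPM with a median of 2.40 CPM. Outdoor groups again overlapped each other and stayed above all indoor libraries, with a pooled ratio of 3.53 (95% counting interval 3.13 to 3.98).

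**Figure D1:**
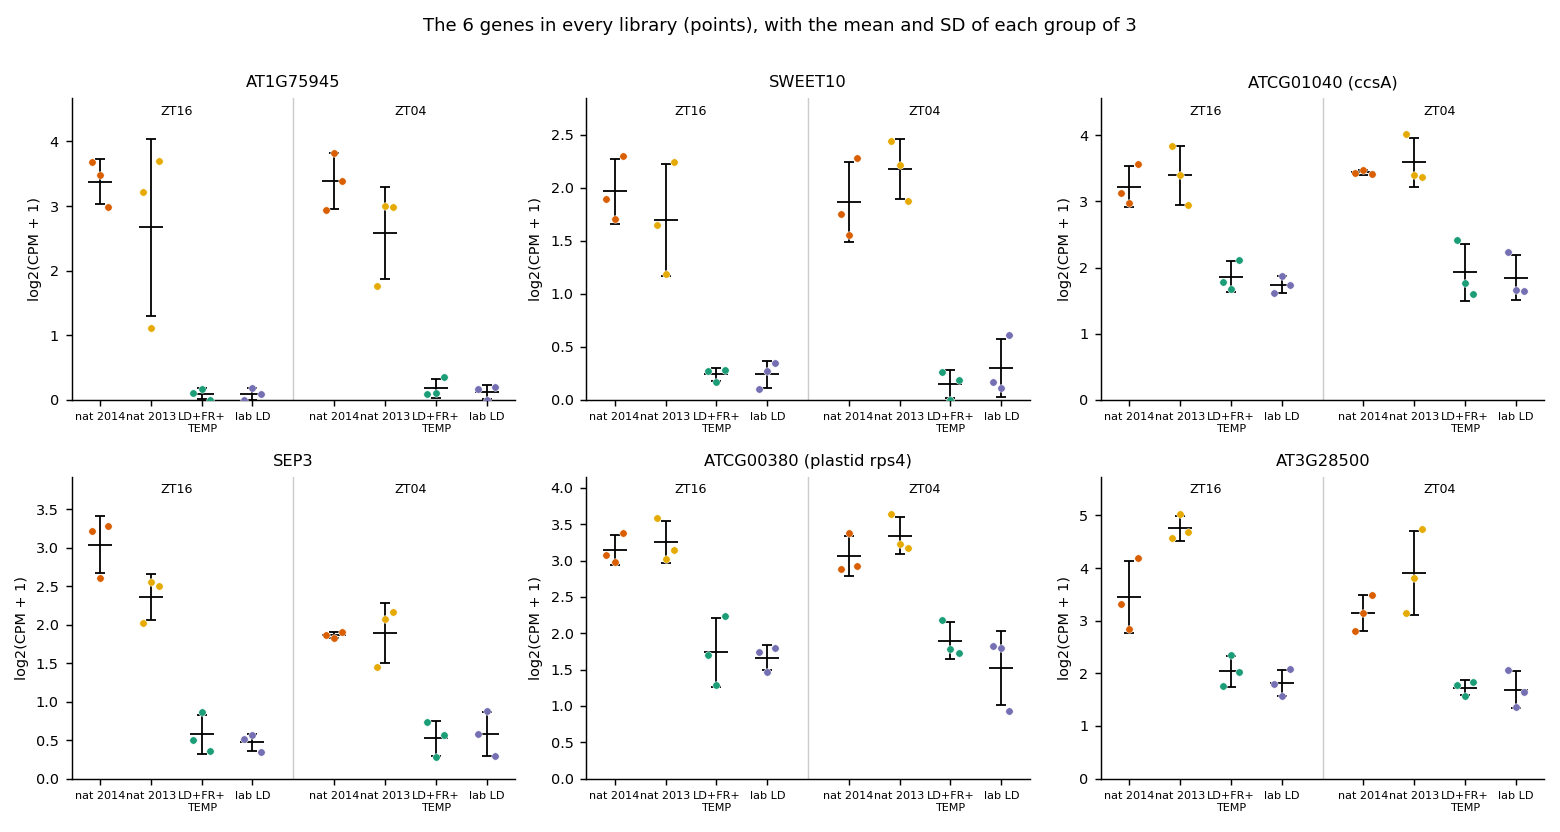
The 6 genes in each library, as log2(CPM + 1) on the vertical axis, with 4 groups at ZT16 on the left and 4 at ZT04 on the right of each panel. Points are libraries, horizontal marks are group means and bars are SD (n = 3). In each panel all 12 natural libraries are above all 12 indoor libraries.

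All 12 natural libraries were above all 12 indoor libraries for each of the 6 genes, which was true of 76 loci in all (0.275%), and every natural group mean was above every indoor group mean for 558 loci (2.02%). The rule fixes the order of the group means, so neither count is support for the members. Scaling by edgeR's TMM factors moved natural against indoor libraries by 0.126 log2 units over all genes, and under it the gaps of the 6 ran from 1.19 (ATCG00380) to 2.58 (AT1G75945). Just inside were SEP3, ATCG00380 and AT3G28500 with gaps of 1.26, 1.17 and 1.12. Just outside were AT4G19430, AT2G41990 and AT2G07675 with 0.91, 0.83 and 0.82. AT4G19430 averaged 6.05 CPM in natural 2014 ZT16 and 1.92 CPM in natural 2013 ZT16, against at most 0.554 CPM in an indoor group.

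The rule did not use the differences between outdoor groups or between indoor groups directly, but it limited them. It took the lowest outdoor and the highest indoor mean, so a gene low in 1 outdoor group or high in 1 indoor group could not be a member. The number of members called is therefore partly set by the choice of genes, and the shares of all genes given beside it are background from which nothing is read about the members. These comparisons came from edgeR's quasi-likelihood test fitted to all 24 libraries, with Benjamini-Hochberg adjusted p-values over 18797 genes, and all 6 members were tested. Among 54 tests, 6 genes in 9 contrasts, 2 passed an adjusted p of 0.05: AT3G28500 was lower in natural 2014 than in natural 2013 at ZT16, and SEP3 was higher at ZT16 than at ZT04 in natural 2014. DESeq2 and limma each also called 2 of the 54.

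Between the years at ZT16, AT3G28500 averaged 10.8 ± 5.83 CPM in natural 2014 and 26.3 ± 4.65 CPM in natural 2013 (SD, n = 3 each). The libraries did not overlap, and the log2 fold change was -1.25 ± 0.32 (SE, edgeR adjusted p = 0.020). One of 6 members passed in this contrast, beside 5.16% of all genes in either direction and 2.33% that were lower. The call was lost without natural 2013 ZT16 replicate 2 (-1.11, adjusted p = 0.116), without natural 2014 ZT16 replicate 1 (-1.12, adjusted p = 0.0948) or without natural 2014 ZT16 replicate 2 (-0.97, adjusted p = 0.133). SEP3 went the other way, with 7.36 ± 1.97 CPM in natural 2014 and 4.20 ± 0.993 CPM in natural 2013 and no overlap of libraries, but its log2 fold change of 0.84 ± 0.29 missed the threshold (edgeR adjusted p = 0.0984). The 4 other members had log2 fold changes between -0.16 and 0.48 with edgeR adjusted p-values of 0.597 to 0.906.

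Between the years at ZT04 none of the 6 passed with edgeR, DESeq2 or limma, where 31% of all genes did with edgeR, and 2 members had an unadjusted p under 0.05. AT1G75945 averaged 9.75 ± 3.19 CPM in natural 2014 and 5.45 ± 2.66 CPM in natural 2013 (log2 fold change 1.0 ± 0.44, edgeR adjusted p = 0.0751). AT3G28500 averaged 8.03 ± 2.13 CPM in natural 2014 and 15.5 ± 9.16 CPM in natural 2013 (-0.78 ± 0.34, edgeR adjusted p = 0.0889). In both the libraries of the years overlapped. AT1G75945 passed without natural 2013 ZT16 replicate 2 (adjusted p = 0.0158), and AT3G28500 passed without natural 2013 ZT04 replicate 1 (-1.11, adjusted p = 0.0138). Natural 2014 ZT04 is the group with the high heat shock sums given above, and their part here was not tested.

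Across the day in natural 2014, SEP3 averaged 7.36 ± 1.97 CPM at ZT16 and 2.65 ± 0.104 CPM at ZT04 (SD, n = 3 each), without overlap. The log2 fold change was 1.18 ± 0.31 (edgeR adjusted p = 0.00289), and it stayed called without each library in turn. It was the 1 of 6 members that passed, where 45.7% of all genes passed in either direction, 23.2% higher and 22.5% lower at ZT16. Its log2 fold change in natural 2013 was 0.43 ± 0.33 (edgeR adjusted p = 0.331). ATCG01040 had the lowest value of the members in natural 2014, -0.51 ± 0.26 (edgeR adjusted p = 0.107), and it passed without natural 2014 ZT16 replicate 3 (-0.73, adjusted p = 0.0418).

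In natural 2013 none of the 6 members passed between ZT16 and ZT04 with edgeR, DESeq2 or limma, and none had an unadjusted p under 0.05, where 35.5% of all genes passed with edgeR. The largest differences were those of SWEET10 (-0.74 ± 0.40, adjusted p = 0.157) and AT3G28500 (0.59 ± 0.31, adjusted p = 0.147). SWEET10 passed without natural 2013 ZT16 replicate 3 (-1.26, adjusted p = 0.0407), and AT3G28500 passed without natural 2013 ZT04 replicate 3 (1.19, adjusted p = 0.00566). Over both years, the time effect outdoors less the time effect indoors was 1.05 ± 0.43 log2 units for SEP3 (edgeR adjusted p = 0.0751). No member passed this contrast with any of the 3 tools, 1 had an unadjusted p under 0.05, and 27.1% of all genes passed with edgeR. So the time effect of SEP3 was not shown to differ between outdoor and indoor seedlings with all libraries. It passed without natural 2014 ZT16 replicate 2 (1.16, adjusted p = 0.0481), LD+FR+TEMP ZT16 replicate 2 (1.34, adjusted p = 0.0253), LD+FR+TEMP ZT04 replicate 2 (1.21, adjusted p = 0.0405) or lab LD ZT04 replicate 3 (1.21, adjusted p = 0.0375).

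**Figure D2:**
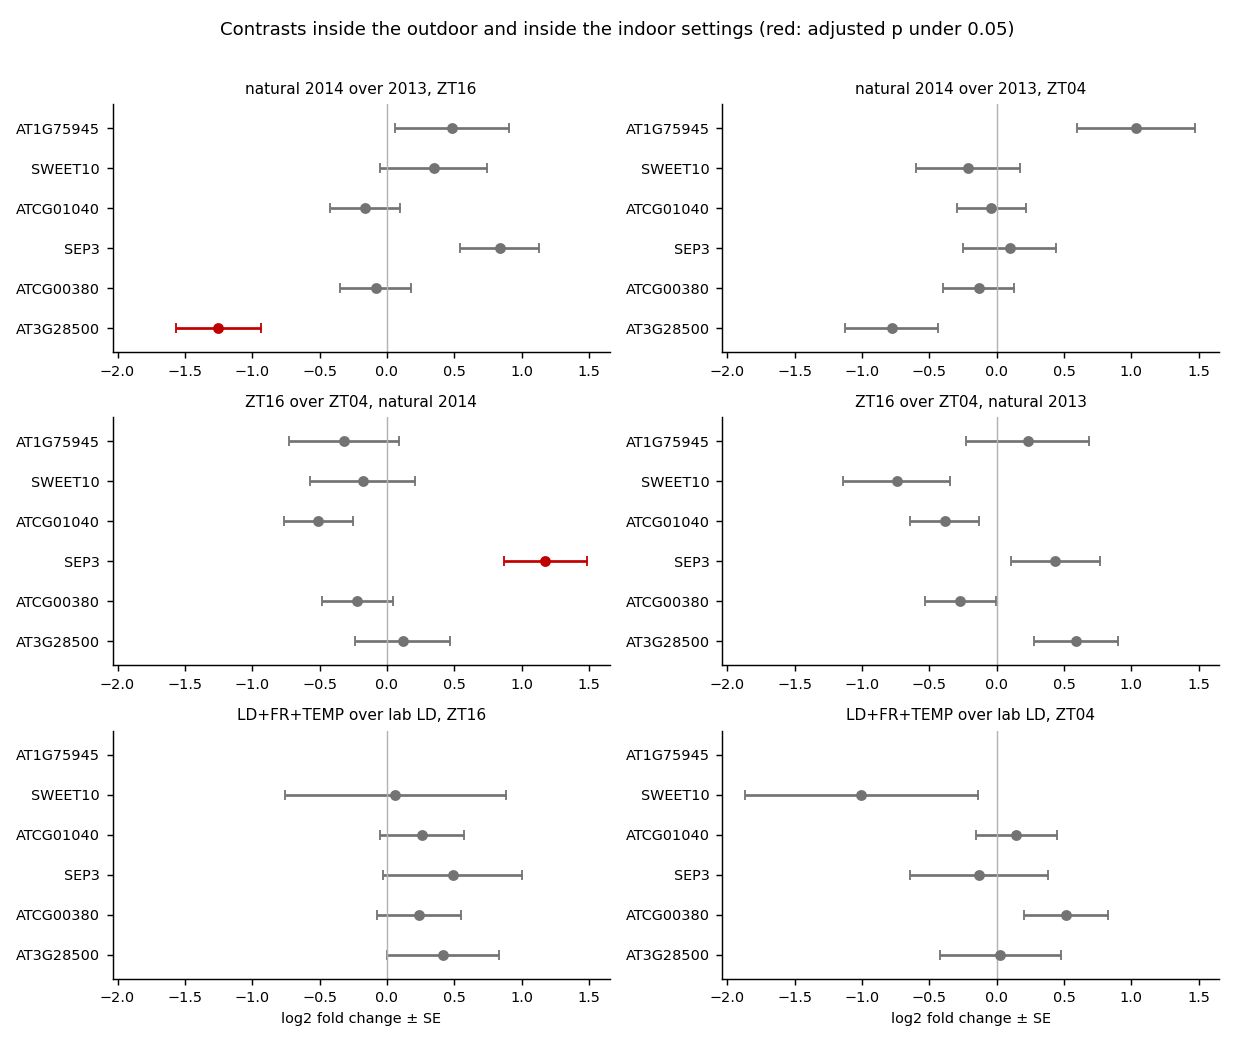
Log2 fold changes (horizontal axis, points, with SE as bars) of the 6 genes in 6 contrasts. The choice of genes did not use these contrasts directly but limited them. Red marks an edgeR adjusted p under 0.05, reached by AT3G28500 for the years at ZT16 and by SEP3 for the time of day in natural 2014. AT1G75945 is not drawn in the indoor contrasts, where it had 0 to 4 reads per library.

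The LD+FR+TEMP setting copied the far-red light and the temperature course of outdoor summer days, and its comparison with lab LD gives the values of the 6 genes with and without those factors. A gene that these factors brought near outdoor levels would have failed the rule, which counts LD+FR+TEMP among the indoor groups, so a small response of the members is partly fixed by their choice. None of the 6 passed at ZT16, where 2.65% of all genes passed with edgeR, and none passed at ZT04, where 16.9% did. DESeq2 and limma gave none either, and no member had an unadjusted p under 0.05. SEP3 averaged 0.506 ± 0.274 CPM in LD+FR+TEMP and 0.391 ± 0.104 CPM in lab LD at ZT16 (log2 fold change 0.49, 95% interval -0.53 to 1.5). At ZT04 it averaged 0.448 ± 0.225 CPM in LD+FR+TEMP and 0.518 ± 0.301 CPM in lab LD (-0.13, 95% interval -1.14 to 0.87). AT3G28500 at ZT16 averaged 3.17 ± 0.846 CPM in LD+FR+TEMP and 2.55 ± 0.631 CPM in lab LD (0.42, 95% interval -0.40 to 1.23). ATCG00380 at ZT04 averaged 2.77 ± 0.686 CPM in LD+FR+TEMP and 1.98 ± 0.927 CPM in lab LD (0.51, 95% interval -0.10 to 1.13). The intervals of SEP3 and SWEET10 were wide: these genes had 17 to 23 and 5 to 10 reads per indoor group. AT1G75945, with 3 to 6 reads per indoor group, was not detectable well enough for a comparison. Between ZT16 and ZT04 no member passed in LD+FR+TEMP, where 23.5% of all genes did, or in lab LD, where 21.9% did, again with edgeR, and none did with DESeq2, with limma or at an unadjusted p under 0.05.

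FT itself is not among the 6, and its values are given beside those of SEP3 and SWEET10, which were chosen for being low in every indoor group. At ZT16 FT gave 13.3, 7.84 and 15.4 CPM in natural 2014, 15, 17 and 17.3 CPM in natural 2013, 8.96, 7.37 and 7.40 CPM in LD+FR+TEMP, and 12.2, 11.7 and 12.7 CPM in lab LD. The evening libraries of natural 2014 and lab LD therefore overlapped. At ZT04 FT gave 14.1, 23.3 and 25.6 CPM in natural 2014, 14.6, 19.4 and 22.2 CPM in natural 2013, 6.39, 5.12 and 8.86 CPM in LD+FR+TEMP, and 1.86, 1.66 and 1.98 CPM in lab LD. FT at ZT04 was thus higher with far-red light and the temperature programme (log2 fold change 1.92 ± 0.28, edgeR adjusted p = 2.57e-05). In that contrast SEP3 and SWEET10 had log2 fold changes of -0.13 ± 0.51 and -1.0 ± 0.86 (edgeR adjusted p = 0.895 and 0.469), but the rule limits such a rise, and SWEET10 rests there on 5 reads in LD+FR+TEMP and 10 reads in lab LD. Across the 12 natural libraries, Pearson's r with FT was 0.14 for SWEET10 (Spearman's rho 0.06) and -0.36 for SEP3 (rho -0.31). Permutation p-values were 0.662 and 0.868 for SWEET10 and 0.247 and 0.334 for SEP3, and adjusted over 46 relations they were 0.958 for each r and 0.946 for each rho. Without the 2 libraries farthest from the median, r was 0.30 for SWEET10 and -0.34 for SEP3. Within groups, after group means were removed, r was 0.21 for SWEET10 and 0.72 for SEP3. The other members had within-group r with FT of 0.82 (AT3G28500), 0.21 (AT1G75945), 0.08 (ATCG00380) and -0.06 (ATCG01040). A high value was thus not particular to SEP3, and these within-group values carry no p-value.

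**Figure D3:**
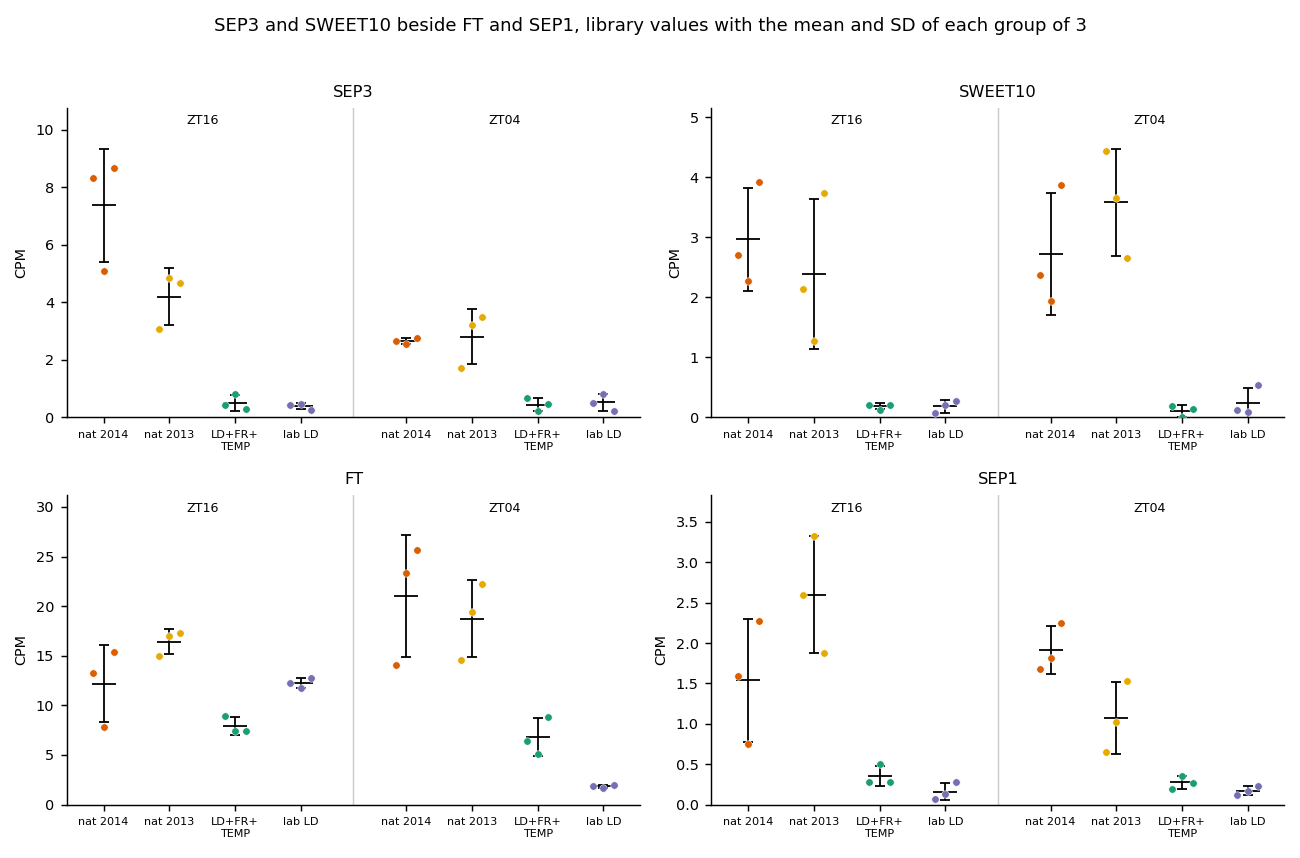
SEP3, SWEET10, FT and SEP1 in each library, in CPM on the vertical axis, with ZT16 on the left and ZT04 on the right of each panel. Points are libraries, horizontal marks are group means and bars are SD (n = 3). FT in lab LD at ZT16 is between 11.7 and 12.7 CPM, within the range of natural 2014, while SEP3 and SWEET10 are low in all indoor groups, as their choice required.

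Of 22 genes on the list of flowering promoters and floral MADS genes, SEP3 was the member, and 7 had every natural group mean above every indoor one (31.82%, beside 2.02% of all loci). SEP3 is in that count by the rule, and the other 6 were SEP1, SEP2, SOC1, AGL24, AP1 and LFY. SEP1 came closest with a gap of 0.61 log2 units. This relative of SEP3 ran from 0.648 to 3.32 CPM in natural libraries with a median of 1.74 CPM, and from 0.0708 to 0.50 CPM indoors with a median of 0.249 CPM, so the libraries did not overlap. SOC1, a MADS-box integrator of flowering signals, had medians of 106 CPM in natural libraries and 61.8 CPM indoors and a gap of 0.28. SEP4, the fourth gene of the SEP group, had medians of 6.51 CPM in natural libraries and 5.54 CPM indoors, and its groups overlapped (gap -0.43). Across the day in natural 2014, 8 of 19 tested genes of the list, SEP3 included, were higher at ZT16 and 2 were lower, beside 23.2% and 22.5% of all genes. SPL3, a promoter of the floral transition in the SPL family, was higher (2.42 ± 0.24, edgeR adjusted p = 6.18e-09), as was FUL, a MADS-box gene of the meristem (1.11 ± 0.32, adjusted p = 0.00562). FT was lower (-1.09 ± 0.21, adjusted p = 0.000114), as was the clock-linked GI (-3.15 ± 0.24, adjusted p = 2.91e-11). The list's median log2 fold change was 0.63, and that of all genes tested was 0.04. SEP1, SEP2 and SEP4 had log2 fold changes of -0.62, 0.71 and 0.46 there, with edgeR adjusted p-values of 0.175, 0.585 and 0.0820.

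SWEET10 was alone among 17 SWEET transporters in having all natural group means above all indoor ones. SWEET11 and SWEET12, known as sucrose exporters for phloem loading in leaves, were more abundant and did not separate. SWEET11 ran from 46.1 to 80.3 CPM in natural libraries and 45.8 to 84.4 CPM indoors, and SWEET12 from 1.11 to 66.6 CPM in natural libraries and 7.44 to 64.4 CPM indoors. SWEET13, the next gene along chromosome 5 on the same strand, at 7066 bases, ran from 0.0945 to 13.7 CPM in natural libraries and 0.778 to 12.6 CPM indoors. It changed with the time of day, with log2 fold changes of ZT16 over ZT04 of -5.54 ± 0.32 in natural 2014 and -2.54 ± 0.24 in lab LD (edgeR adjusted p = 1.72e-13 and 6.70e-09). SWEET10 had -0.18 ± 0.39 and -0.56 ± 0.79 in those contrasts (edgeR adjusted p = 0.735 and 0.674). SWEET3, SWEET6 and SWEET9 had 0 reads, and 11 of the 17 were tested.

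AT3G28500 had the fewest reads of 9 genes named as 60S acidic ribosomal proteins, and the one with all natural groups above all indoor groups. The other 8 had medians of 87.8 to 1818 CPM in natural libraries and 110 to 1560 CPM indoors. None of these 8 had all natural group means above all indoor ones, and 1 had the reverse. These levels are reads per gene near the 3′ end and are not scaled by length. At ZT04 all of the other 8 were higher in natural 2014 than in natural 2013, by 0.43 to 0.71 log2 units (edgeR adjusted p of 1.86e-06 to 0.00273), where 16.5% of all genes were higher. AT3G28500 had -0.78 ± 0.34 there. At ZT16, where AT3G28500 was lower in 2014, the other 8 had log2 fold changes of -0.16 to 0.17 and edgeR adjusted p-values of 0.276 to 0.899. Across the day in natural 2014 the same 8 were lower at ZT16, by -0.59 to -0.23 (edgeR adjusted p of 3.09e-06 to 0.0282), while AT3G28500 had 0.12 ± 0.35 (edgeR adjusted p = 0.813).

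**Figure D4:**
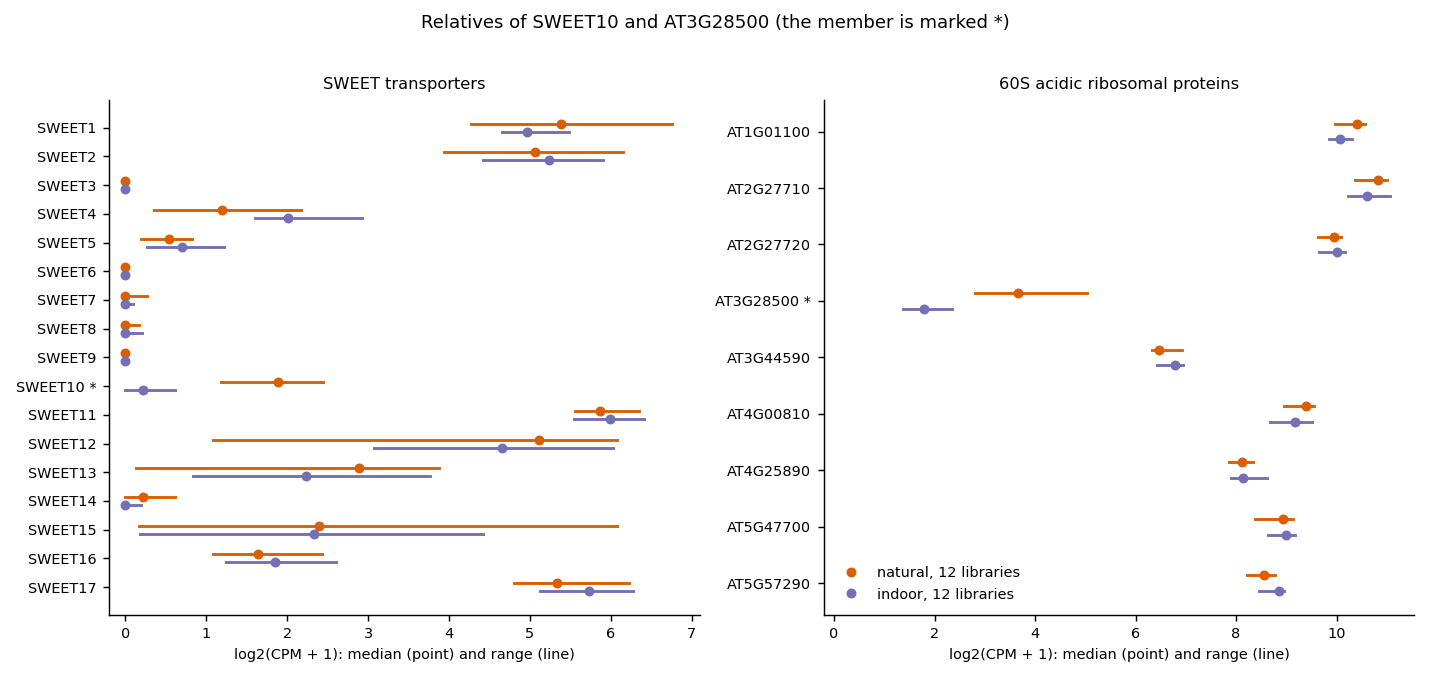
Medians (points) and ranges (lines) over 12 natural and 12 indoor libraries of 17 SWEET transporters and 9 genes of 60S acidic ribosomal proteins, as log2(CPM + 1) on the horizontal axis. SWEET10 and AT3G28500, marked with an asterisk, are the genes whose natural range lies wholly above the indoor range.

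Most plastid genes did not follow ATCG01040 and ATCG00380. Of 88 plastid loci, 11 had every natural group mean above every indoor one (12.5%, beside 2.02% of all loci), the 2 members among them by the rule. Without the 2 members it was 9 of 86 (10.47%). The reverse held for 12 plastid loci, and its share of all loci is not given here. The nearest others were PSBM, a small subunit of photosystem II (gap 0.67), RPS14, another protein of the plastid ribosome (gap 0.59), and NDHC of the plastid NDH complex (gap 0.56). RPS14 (ATCG00330) had a natural median of 12.7 CPM and an indoor median of 2.11 CPM. It ran from 5.13 to 22.8 CPM in natural libraries and from 0.920 to 7.31 CPM indoors, and its libraries overlapped. The 86 plastid loci other than the 2 members summed to 5100 to 7181 CPM in natural libraries (median 5806 CPM) and 4147 to 6398 CPM indoors (median 5277 CPM), and the part of this sum in the members' values was not tested. Plastid messages mostly lack long poly(A) tails, and these libraries were made from poly(A)-selected RNA, so the values count those plastid molecules that were captured.

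**Figure D5:**
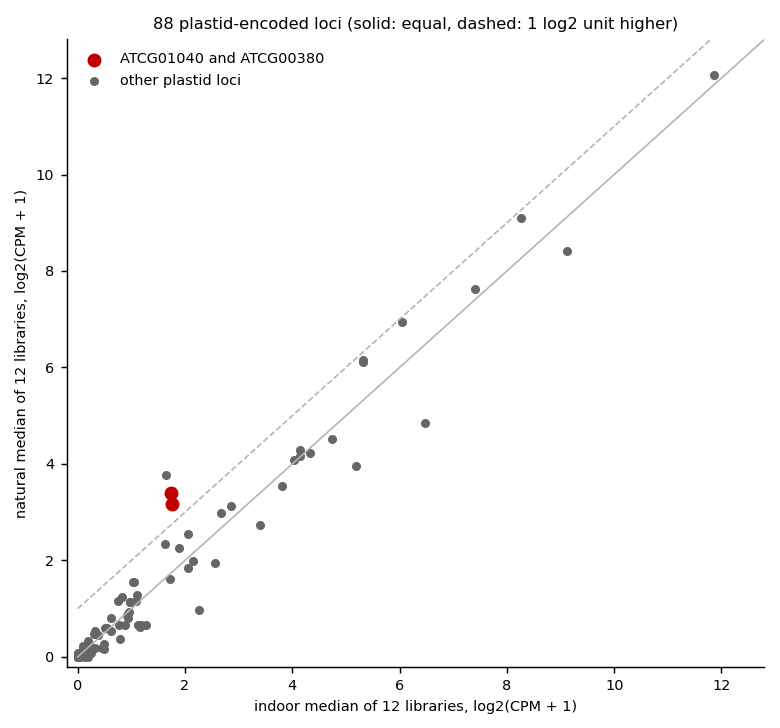
The median of 12 natural libraries (vertical axis) against the median of 12 indoor libraries (horizontal axis) for 88 plastid loci, as log2(CPM + 1). The solid line marks equal values and the dashed line 1 log2 unit more in natural libraries. ATCG01040 and ATCG00380 in red and RPS14 beside them are the 3 points above the dashed line.

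Within the natural libraries, ATCG01040 and ATCG00380 varied together, with r = 0.73 (rho 0.55, n = 12, permutation p = 0.00654 and 0.0671). Adjusted over 46 relations these were 0.150 and 0.518, so the relation failed the correction, and r was 0.69 without the 2 libraries farthest from the median and 0.77 within groups. Indoors r was 0.61 (rho 0.54, permutation p = 0.0354 and 0.0748, adjusted 0.326 and 0.518), 0.53 without the 2 farthest and 0.63 within groups. ATCG00380 also moved with the sum of the other plastid loci indoors (r = 0.84, rho 0.75, n = 12, permutation p = 0.000600 and 0.00652, adjusted 0.0276 and 0.273), with r = 0.63 without the 2 farthest libraries and 0.86 within groups. In natural libraries that r was 0.67 (rho 0.53, permutation p = 0.0165 and 0.0789, adjusted 0.190 and 0.518), with 0.35 without the 2 farthest libraries and 0.85 within groups. For ATCG01040 and the same sum, r was 0.68 in natural libraries (rho 0.70, permutation p = 0.0151 and 0.0138, adjusted 0.190 and 0.273), 0.53 without the 2 farthest and 0.84 within groups. Indoors it was 0.35 (rho 0.26, permutation p = 0.265 and 0.417, adjusted 0.958 and 0.946), 0.28 without the 2 farthest and 0.37 within groups. Among the 6 pairs of the 4 nuclear members, r in natural libraries ran from -0.30 to 0.25, and within groups from -0.02 to 0.77 (SEP3 with AT3G28500).

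Over all 24 libraries, by a measure of likeness chosen after the values were known (Pearson's r of log2(CPM + 1)), the gene most like AT1G75945 and most like SWEET10 was AT3G26510, annotated as an Octicosapeptide/Phox/Bem1p family protein, with r of 0.94 for each. AT3G26510 itself ran from 46.5 to 69.8 CPM in natural libraries and 22.5 to 34.6 CPM indoors. AT1G75945 and SWEET10 were each among the 3 genes most like the other, with r = 0.91. ATCG01040 and ATCG00380 were most like each other (r = 0.96), followed by the splicing factor gene SR34 and by RPS14 for ATCG01040, and by NDHC and SR34 for ATCG00380. SEP3 was most like FHA2 (r = 0.94), the Rubisco small subunit gene RBCS3B and the photorespiratory gene GOX2. AT3G28500 was most like CYP706A3 (r = 0.93), a cytochrome P450 gene. The libraries share the setting that chose the members, so these values describe the pattern and carry no test.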

How the data were processed

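Gene counts came from 24 libraries of poly(A) RNA made with a 3′ digital gene expression kit, per the labels' protocols. The authors deposited whole-number read counts per gene model. They also deposited a normalized table, a signal that equals counts times 1 factor per library (largest relative deviation 5.3e-15). The submitters' processing notes name bcl2fastq 2.17.1.14, Trimmomatic 0.36, Bowtie2, edgeR and TAIR10. Strand and multiple-mapping settings are not given in the sources used here, so reads of overlapping or duplicated genes may be mixed.

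Models were summed per locus and divided by the library total to give CPM. The members and gene lists were chosen with earlier results of these data known, and the likeness measure and the floral organ list after the values were seen. Named genes are the 6 members, the nearest loci outside the threshold, and genes of the fixed lists; AT3G26510, SR34, FHA2, CYP706A3 and neighbours were named after their values were seen. Of 417 list members, 412 were matched.

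edgeR 4.0.16 (R 4.3.3) fitted 8 group means to 18797 genes that passed filterByExpr (minimum count 10, total 15), with TMM scaling and Benjamini-Hochberg adjustment. The SE of a fold change was derived from the test statistic. The 95% intervals of fold changes are a normal approximation from that SE and can be narrower than the edgeR test implies. DESeq2 1.42.0 and limma 3.58.1 were alternatives. The edgeR step was tested on simulated counts of 18797 genes for natural 2014 against natural 2013 at ZT04: it called 53.7% of genes lowered and 81.1% of genes raised by 1 log2 unit. Intervals of pooled ratios are exact and, since reads carry no molecular identifiers here, cover counting error only. Correlations used 100000 permutations, two-sided. Replicate pairs differed by more than sampling noise in all groups. Copies were sought with blastn 2.17.0 (word size 28, identity at least 90%).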

Additional observations from a re-analysis of the deposited data

How the results depend on the processing

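Of 1683 fold changes of the 6 genes under alternatives, 1667 kept their side of the threshold, 13 newly passed, 3 no longer passed and none changed sign after a call. The number of genes that meet the rule was 6 with TMM scaling, medians, the authors' normalized table or totals without organelle loci, 7 in thinned libraries and 8 with 0.5 added. It was 2 with 2 added (AT1G75945 and ATCG01040), 1 at a threshold of 1.5 (AT1G75945), and 0 when the lowest natural library had to be 1 above the highest indoor library. Without 1 replicate it was 5 to 7: ATCG00380 was lost without natural 2014 ZT04 replicate 2, and AT3G28500 without natural 2014 ZT04 replicate 3 or LD+FR+TEMP ZT16 replicate 1. With only the compared groups in the fit, 1838 genes were called for LD+FR+TEMP against lab LD at ZT04 (3184 with all groups) and 1485 for natural 2014 against 2013 at ZT16 (969 with all groups). That fit also called 1 member higher in 2014 at ZT04 (AT1G75945, 1.01, adjusted p = 0.0438), 1 higher in 2014 at ZT16 (SEP3, 0.82, adjusted p = 0.0452) and 1 lower at ZT16 than at ZT04 in 2014 (ATCG01040, -0.53, adjusted p = 0.0326). For LD+FR+TEMP against lab LD at ZT16, 499 genes were called, against 243 with limma and 301 in thinned libraries. Thinned libraries gave 1 member lower in 2014 at ZT04 (AT3G28500, -0.86, adjusted p = 0.0413). A minimum mean of 5 CPM over all libraries left SEP3, AT1G75945 and SWEET10 untested, with 0 members higher at ZT16 in 2014. The causes were not tested. Without 1 replicate, genes called ran from 2206 to 3377 (LD+FR+TEMP against lab LD, ZT04), 66 to 1209 (ZT16), 4606 to 6062 (2014 against 2013, ZT04), 339 to 1114 (ZT16), 5391 to 6861 (time in natural 2013), 7658 to 8774 (natural 2014), 3329 to 4668 (LD+FR+TEMP), 3242 to 4270 (lab LD) and 4632 to 5247 (difference of time effects). Members called higher ran from 0 to 1 for time in natural 2013, for 2014 against 2013 at ZT04 and for the difference of time effects, and stayed at 1 for time in natural 2014. Members called lower ran from 0 to 1 for time in natural 2013 and 2014 and for 2014 against 2013 at both times. SEP3 passed in the difference of time effects without LD+FR+TEMP ZT16 replicate 2 (1.34, adjusted p = 0.0253) and without 3 other libraries in turn, natural 2014 ZT16 replicate 2, LD+FR+TEMP ZT04 replicate 2 and lab LD ZT04 replicate 3. Replicate numbers are shared between groups, but same-numbered libraries did not deviate together (median correlation -0.018). With the replicate block, genes called were 3037, 459, 5686, 883, 6574, 8467, 4336, 3994 and 5002, in the order LD+FR+TEMP against lab LD at ZT04 and ZT16, 2014 against 2013 at ZT04 and ZT16, time in natural 2013, natural 2014, LD+FR+TEMP and lab LD, and the difference of time effects, and the 2 member calls were the same. Depth limits AT1G75945 and SWEET10 indoors, where no group held over 10 reads.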

Other observations

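Other floral genes were read at low levels outdoors, on a list written after the values were seen. AP3, which sets petal and stamen identity, had 84 reads over the natural libraries (median 0.658 CPM, highest 2.2) and 4 reads indoors (highest 0.0760 CPM). AP1, a gene of floral meristem identity that is on the fixed flowering list, had 63 reads in natural libraries and 2 indoors. PI, the partner of AP3, had a median of 2.27 CPM in natural libraries and 0.682 CPM indoors. AG, SHP2 and STK, genes of inner floral organs and ovules, had no gap above 0. The other 3 of the 6 genes on the list written after the values were seen, AP3, PI and SHP1, had one. None of the 6 had every natural library above every indoor library.

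Of 122 mitochondrial loci, 15 had every natural group mean above every indoor one (12.3%, beside 2.02% of all loci) and none had the reverse. They summed to 30.9 to 59.7 CPM in natural libraries and 15.8 to 49.6 CPM indoors. In 19 other gene lists, 8 of 347 genes had such a gap (2.31%, close to the share of all loci). The reverse held for 30 of the 347, but its share of all loci is not given here, so nothing is read from that count. Among the 8 were SDI1 and GGCT2;1 of the sulfur starvation list and CSD2 of the iron and copper list, named after their values were seen, with gaps of 0.41, 0.43 and 0.67 log2 units. The sulfur starvation list was lower in natural 2014 at ZT16, with sums of 165 to 245 CPM against 342 to 391 CPM indoors at ZT16. It was higher in natural 2013 at ZT16, with 423 to 444 CPM. At ZT04 it summed to 935 to 1109 CPM in natural 2013 and 1455 to 1731 CPM in natural 2014, against 401 to 602 CPM indoors. The iron and copper list summed to 2183 to 3010 CPM in natural libraries and 1930 to 2906 CPM indoors, which overlap.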
